A study of Mus musculus with 16 samples.

Results

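The genes described here encode nuclear subunits of respiratory complexes II to V and a few factors that bear their names, measured by RNA sequencing in mammary fat of lean mice, obese mice and obese mice taken off the high-fat diet. They were taken by symbol: Sdha to Sdhd for complex II, the Uqcr genes and Cyc1 for complex III, the Cox4 to Cox8 genes for complex IV and the Atp5 genes for complex V, without hyphenated symbols and without Cox8b and Cox7a1. The rule took 44 of the 23179 listed genes: 4 of complex II, 9 of complex III, 14 of complex IV and 17 of complex V. It used no measured value. Counted among the 44 are 3 factors that are not core subunits, namely Cox7a2l, Atp5s and Atp5sl. Subunits encoded by mitochondrial DNA were not analysed here.

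The mice were female wild-type C57BL/6NCrl animals, bought at 8 weeks of age and given 1 week to settle before the diets began. Lean controls (CON-LFD) ate a low-fat diet with 10% of its energy as fat throughout and had sham surgery. Diet-induced obese mice ate a diet with 60% of its energy as fat for 15 weeks. Some of them had sham surgery and stayed on that diet (DIO-HFD). Others had sham surgery and changed to low-fat food (DIO-LFD). The last group changed to low-fat food and had vertical sleeve gastrectomy, removal of 70 to 80% of the lateral stomach (DIO-VSG). Surgery and diet therefore changed together in DIO-VSG relative to DIO-HFD. Every mouse, lean controls included, received cells of E0771, a mouse mammary tumor line, in the fourth mammary fat pad of 1 side in week 22 and was killed 4 weeks later, and RNA came from the fat pad of the other side. Each group had 4 libraries, which the sample descriptions tie to separate animals. The sources used here give no meaning to the numbering of replicates from 1 to 4.

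The respiratory chain lies in the inner mitochondrial membrane. Complex II oxidizes succinate as a step of the tricarboxylic acid cycle, complex III passes electrons from ubiquinol to cytochrome c, complex IV passes them on to oxygen, and complex V, the ATP synthase, uses the proton gradient that complexes III and IV help to build. White fat holds few mitochondria and brown or beige fat holds many, and in the latter the uncoupling protein Ucp1 lets protons return without making ATP.

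The libraries held 46907377 to 57610899 reads over the listed genes, and 21218 genes, among them all 44 genes of complexes II to V, passed a minimum of 10 normalized counts in at least 4 libraries. The fat pad itself was evident from its markers: the summed level of 10 adipocyte markers was 567379 to 2051720 normalized counts in the 16 libraries. Other cells varied widely between libraries of 1 group. The 8 markers of brown or beige adipocytes summed to 2538 to 53826 normalized counts in CON-LFD, 448 to 1433 in DIO-HFD, 3423 to 9563 in DIO-LFD and 1161 to 38851 in DIO-VSG, so that every DIO-HFD library lay below every CON-LFD and DIO-LFD library. The 12 skeletal muscle markers summed to 2453 to 32583 in CON-LFD, 963 to 3354 in DIO-HFD, 1530 to 140924 in DIO-LFD and 610 to 23395 in DIO-VSG. The 8 B cell markers summed to 258 to 64617 in CON-LFD, 976 to 85937 in DIO-HFD, 15372 to 34998 in DIO-LFD and 59262 to 68812 in DIO-VSG, and the study's methods do not say whether lymph nodes were cut out. No marker of these lists was under 3 reads in all libraries. In bulk tissue, fewer cells of a type and less RNA per cell cannot be told apart.

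The genes of complexes II to V were among the abundant transcripts of the fat pad. Per kilobase of transcript, the median of the 44 lay at the 97.5th percentile of all genes of known length. Atp5b, which encodes the catalytic beta subunit of the ATP synthase, was the most abundant at 27030.5 normalized counts per kilobase, followed by Cox4i1 at 18302.5 and Cox6a1 at 14789. At the other end were genes known as tissue-restricted forms. Cox6a2, the form of heart and skeletal muscle, had 78.7 normalized counts per kilobase, Cox4i2, the form of lung, had 164, and Cox6b2, the testis form, had 165. Atp5g2, a gene of the c ring of complex V, lay between them at 146, on a mean of 107 normalized counts, while its pseudogene copies held a mean of 4478. All 44 together took 0.602% ± 0.154 (SD, n = 4) of the reads in CON-LFD, 0.455% ± 0.0412 in DIO-HFD, 0.593% ± 0.0619 in DIO-LFD and 0.579% ± 0.101 in DIO-VSG.

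Promoter windows of 300 bases, from 250 before to 50 after the start annotated by RefSeq on GRCm38.p6, could be read for 34 of the 44 genes. Their letters were searched on both strands for short forms of the motifs of factors known to act on respiratory genes. GCGCATGC, a core of the NRF1 motif, was in 7 of the 34 windows (20.6%), in 2.80% of 27025 windows of all genes and in 3.6% of the 17491 windows of protein-coding genes. CCGGAAG, the motif of GABPA (NRF2), was in 11 (32.4%), in 9.12% of all and in 11.9% of protein-coding windows. TCAAGGTCA, the motif of the estrogen-related receptors, was in 2 (5.88%), in 0.407% of all and in 0.332% of protein-coding windows. AAGATGGC of YY1 was in 3 (8.82%), against 2.88% and 3.22%. GGGCGG of SP1 was in 13 (38.2%), above the 35.9% of all windows and below the 46.3% of protein-coding ones. TGACGTCA of CREB was in 1 (2.94%), against 1.88% and 2.34%. A match is a description of the letters only, and no match says only that these letters are not in the window. The 5 windows printed below belong to genes that recur in the results: Uqcrh, Cox7c, Sdhb and Atp5k, which were lower in DIO-HFD than in CON-LFD, and Cox7a2l, which was not. Each runs 5′ to 3′ on the strand of the gene, with motif matches in capitals. Uqcrh holds a GABPA match, Sdhb an NRF1, a GABPA and 3 SP1 matches, Cox7a2l 2 SP1 matches and Cox7c none. In Atp5k the NRF1 letters overlap with their own reverse complement, so that the same run matches on both strands, and a GABPA match follows.
Uqcrh (chr4:116075021-116075320, minus strand): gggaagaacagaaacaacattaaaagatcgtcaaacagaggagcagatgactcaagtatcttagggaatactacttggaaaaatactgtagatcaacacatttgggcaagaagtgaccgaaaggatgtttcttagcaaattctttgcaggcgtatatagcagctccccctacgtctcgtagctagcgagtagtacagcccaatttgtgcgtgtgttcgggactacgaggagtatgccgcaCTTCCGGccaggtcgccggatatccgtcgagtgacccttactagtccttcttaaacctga
Cox7c (chr13:86046746-86047045, minus strand): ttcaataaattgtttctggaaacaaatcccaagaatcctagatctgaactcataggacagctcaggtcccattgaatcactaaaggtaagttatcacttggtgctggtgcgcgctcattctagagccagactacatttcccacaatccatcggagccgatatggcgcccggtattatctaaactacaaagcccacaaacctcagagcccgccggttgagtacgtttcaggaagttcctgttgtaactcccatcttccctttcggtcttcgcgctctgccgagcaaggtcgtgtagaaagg
Sdhb (chr4:140961021-140961320, plus strand): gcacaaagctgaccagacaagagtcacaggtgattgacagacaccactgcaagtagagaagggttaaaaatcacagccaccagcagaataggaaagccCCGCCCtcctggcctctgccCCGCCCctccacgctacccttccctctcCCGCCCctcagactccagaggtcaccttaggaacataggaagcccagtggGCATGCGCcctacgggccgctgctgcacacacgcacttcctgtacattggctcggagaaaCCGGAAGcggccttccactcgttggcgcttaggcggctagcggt
Atp5k (chr5:108434350-108434649, minus strand): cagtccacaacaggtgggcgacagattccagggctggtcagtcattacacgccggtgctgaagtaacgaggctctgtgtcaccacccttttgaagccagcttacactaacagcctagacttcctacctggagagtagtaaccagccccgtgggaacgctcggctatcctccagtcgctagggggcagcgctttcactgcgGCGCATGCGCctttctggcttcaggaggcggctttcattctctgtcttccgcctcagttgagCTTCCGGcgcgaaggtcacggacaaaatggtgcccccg
Cox7a2l (chr17:83514284-83514583, minus strand): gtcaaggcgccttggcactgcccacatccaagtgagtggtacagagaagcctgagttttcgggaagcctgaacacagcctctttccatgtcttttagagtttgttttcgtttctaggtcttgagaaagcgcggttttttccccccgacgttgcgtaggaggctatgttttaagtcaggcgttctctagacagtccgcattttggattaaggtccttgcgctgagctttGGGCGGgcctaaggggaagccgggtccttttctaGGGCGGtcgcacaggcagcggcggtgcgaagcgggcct

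DIO-HFD minus CON-LFD asked how obesity on the high-fat diet differed from leanness on the low-fat diet. The genes of complexes II to V were mostly lower in obese mammary fat: 41 of 44 had a log2 difference below 0, with a median of -0.48, a fold of 0.716, where the median of all genes was 0.02. The exceptions were Cox4i2, Cox6a2 and Cox7a2l. Of the 44, 30 (68.2%) were lower at an unadjusted P below 0.05 and 0 were higher, against 7.66% lower and 5.23% higher among the 21218 genes tested. None passed an adjusted P of 0.05 by limma on log2(normalized count + 1), the smallest being 0.176, and among all genes 8 passed (0.0377%). No fit without library weights and with all 16 libraries gave a member below 0.05 after adjustment, limma-voom on the recovered reads included. When limma estimated a weight for each library, 33 of the 44 passed an adjusted P of 0.05, as did 19.8% of all genes, and the smallest adjusted P was 0.00224, that of Cox7c, whose adjusted P ranged from 0.00224 to 0.547 over all alternatives. In that fit DIO-HFD replicate 4 alone carried a weight of 10.9, where the other 15 libraries had 0.222 to 2.35. The count of 30 was 17 without CON-LFD replicate 1, 13 without CON-LFD replicate 2, 15 without DIO-HFD replicate 1 and 19 without DIO-HFD replicate 4. Without CON-LFD replicate 3 it was 35, and Cox7c and Atp5c1 then passed an adjusted P of 0.05 by limma, as did 0.603% of all genes.

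**Figure D1:**
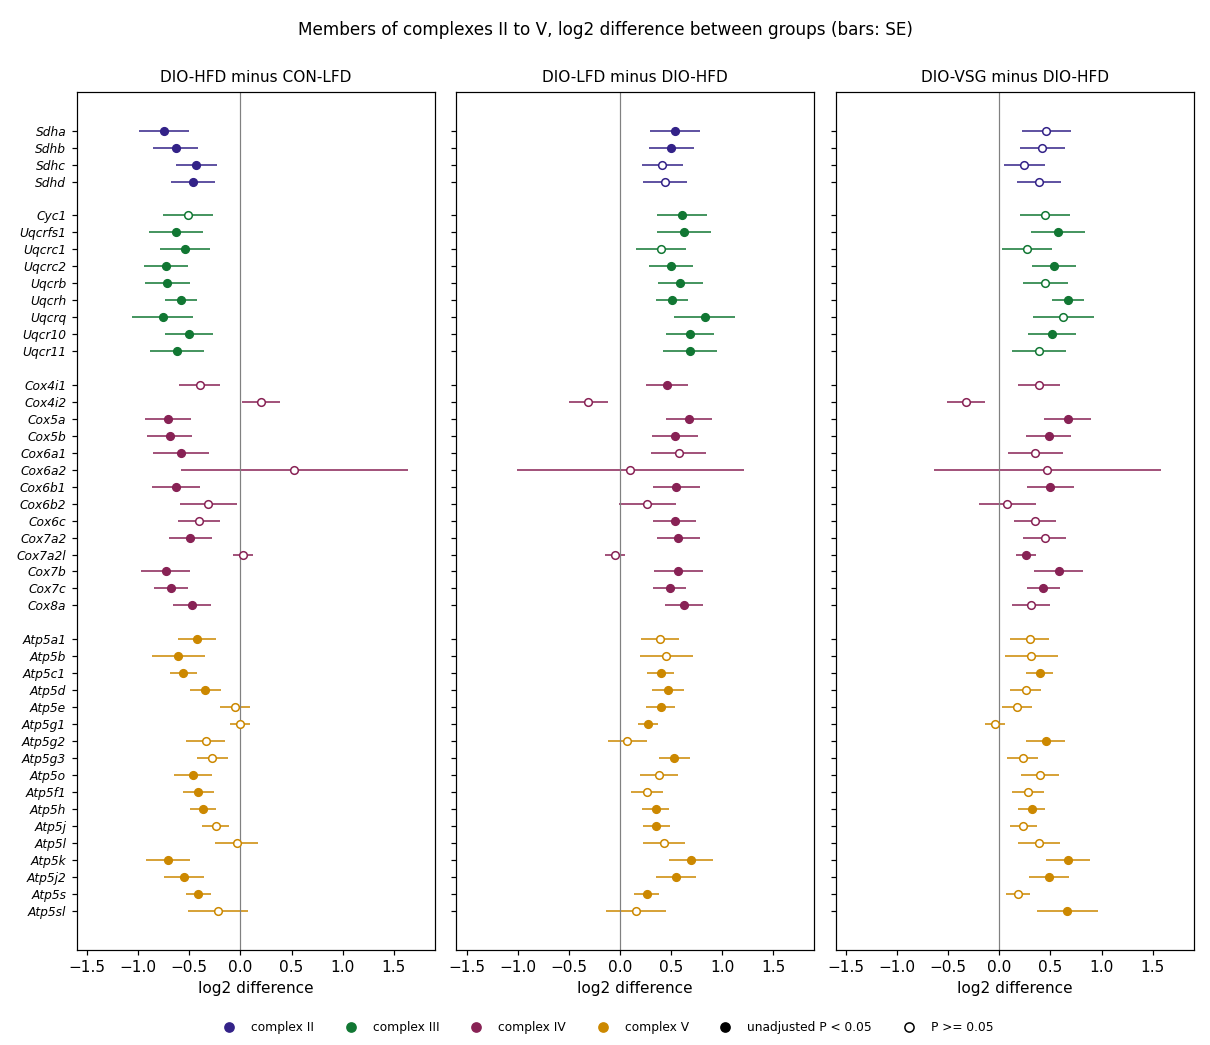
Log2 difference with its standard error (horizontal axis) of each of the 44 genes, ordered by complex, in DIO-HFD minus CON-LFD, DIO-LFD minus DIO-HFD and DIO-VSG minus DIO-HFD, 4 libraries a group, filled where the unadjusted limma P was below 0.05. Most points lie left of 0 in the left panel (41 of 44) and right of 0 in the other panels (42 of 44 in each), and the 3 panels share the DIO-HFD libraries.

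Complex II had all 4 of its subunits lower in DIO-HFD at an unadjusted P below 0.05, with a median log2 difference of -0.55. Sdha (ENSMUSG00000021577.14, chr13:74322254-74350280, minus strand of GRCm38, as all gene positions given here), the flavoprotein that oxidizes succinate, had normalized counts of 25315, 41837, 17533 and 20446 in CON-LFD, 11771, 15979, 16098 and 15636 in DIO-HFD, 20731, 25263, 19460 and 20646 in DIO-LFD and 16473, 16300, 28855 and 21913 in DIO-VSG. Every DIO-HFD library lay below every library of the other groups, and DIO-HFD replicate 1 was the lowest of all. The log2 difference from CON-LFD was -0.75 (SE 0.24, unadjusted P = 0.00794, adjusted P = 0.25 by limma). Sdhb (ENSMUSG00000009863.14, chr4:140961203-140979193, plus strand), the iron-sulfur subunit beside it, had 6126, 8924, 4165 and 5021 in CON-LFD, 3099, 3852, 4074 and 4058 in DIO-HFD, 4552, 6490, 5114 and 5285 in DIO-LFD and 4133, 4148, 6924 and 5333 in DIO-VSG. Again no DIO-HFD library reached any library of another group, though the highest DIO-HFD value and the lowest DIO-VSG and CON-LFD values were close together. Its log2 difference was -0.63 (SE 0.22). The membrane anchors Sdhc (-0.43, SE 0.20) and Sdhd (-0.47, SE 0.22) differed by less on the log2 scale, and their DIO-HFD and CON-LFD libraries overlapped. With 4 libraries against 4, an exact two-sided permutation test allows no P below 0.0286 (70 splits), the value that every gene with groups that do not overlap reaches.

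Complex III had 8 of 9 genes lower at an unadjusted P below 0.05, with a median log2 difference of -0.62, the lowest median of the 4 complexes. Uqcrh (ENSMUSG00000063882.12, chr4:116066965-116075071, minus strand), the hinge protein that supports contact with cytochrome c, had normalized counts of 6507, 8419, 5359 and 5974 in CON-LFD, 4426, 4287, 4005 and 4594 in DIO-HFD, 5188, 7001, 5998 and 6654 in DIO-LFD and 6082, 5685, 8948 and 7203 in DIO-VSG. The 4 DIO-HFD values were close together and below all 12 others. Its log2 difference was -0.58 (SE 0.16, unadjusted P = 0.00215, adjusted P = 0.215 by limma). Uqcrq, a small subunit that lies next to cytochrome b, had 4344, 6118, 2418 and 3528 in CON-LFD, 1679, 2296, 3378 and 2114 in DIO-HFD, 2775, 5031, 3973 and 4934 in DIO-LFD and 2662, 2965, 4952 and 4009 in DIO-VSG. DIO-HFD replicate 3 was within the range of CON-LFD, and the other 3 obese libraries were below all lean ones. Its log2 difference of -0.76 (SE 0.30) was the lowest of the 44.

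The catalytic and core subunits of complex III followed with more overlap. Cyc1, cytochrome c1, had 5283, 8443, 3638 and 4301 in CON-LFD, 2739, 3581, 4572 and 3746 in DIO-HFD, 4555, 6847, 5172 and 5637 in DIO-LFD and 3904, 4141, 6725 and 5334 in DIO-VSG. It was the 1 gene of the complex that missed an unadjusted P of 0.05 (log2 difference -0.51, SE 0.25, unadjusted P = 0.0573 and adjusted P = 0.403 by limma), with DIO-HFD replicate 3 above 2 of the CON-LFD libraries. Uqcrfs1, the Rieske iron-sulfur protein, had 6007, 10506, 4177 and 5105 in CON-LFD, 3092, 3925, 4801 and 4027 in DIO-HFD, 5828, 7060, 5270 and 6200 in DIO-LFD and 4602, 4574, 8769 and 6238 in DIO-VSG. Its log2 difference was -0.63 (SE 0.26), and CON-LFD replicate 3 lay among the DIO-HFD libraries. Uqcrc1, a core protein without redox centres, had 8699, 15492, 5896 and 7274 in CON-LFD, 4944, 6109, 7261 and 5852 in DIO-HFD, 6895, 9218, 7429 and 8237 in DIO-LFD and 6097, 6053, 9721 and 7555 in DIO-VSG, and differed by -0.54 (SE 0.25) with the same kind of overlap. The remaining genes, Uqcrc2, Uqcrb, Uqcr10 and Uqcr11, had log2 differences from -0.73 to -0.51, and of these Uqcrc2 alone had no overlap between the groups.

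Complex IV had 8 of 14 genes lower at an unadjusted P below 0.05, with a median log2 difference of -0.48. Cox7c (ENSMUSG00000017778.14, chr13:86044816-86046904, minus strand), a small membrane subunit, had normalized counts of 3812, 4217, 2449 and 3225 in CON-LFD, 1860, 2107, 2486 and 1973 in DIO-HFD, 2453, 3153, 2922 and 3282 in DIO-LFD and 2536, 2508, 3443 and 2892 in DIO-VSG. CON-LFD replicate 3 was just under DIO-HFD replicate 3, and all other lean libraries were above all obese ones. Its log2 difference was -0.68 (SE 0.16), with the smallest P of the 44 (unadjusted P = 0.00094, adjusted P = 0.176 by limma). With the reads of its pseudogene copies added, the log2 difference of Cox7c was -0.58 (SE 0.18, unadjusted P = 0.00602, adjusted P = 0.245 by limma). Cox5a, a matrix-side subunit, had 3875, 5856, 2601 and 3017 in CON-LFD, 2125, 2131, 2498 and 2195 in DIO-HFD, 3176, 4261, 3167 and 3788 in DIO-LFD and 2830, 2943, 5110 and 3731 in DIO-VSG. The DIO-HFD libraries were within a narrow band under all others, and the log2 difference was -0.71 (SE 0.23). Cox5b, a zinc-binding matrix-side subunit, had 6917, 8715, 4032 and 5556 in CON-LFD, 3056, 4078, 4129 and 3849 in DIO-HFD, 4479, 6273, 5200 and 6065 in DIO-LFD and 4284, 4389, 7306 and 5474 in DIO-VSG, and differed by -0.69 (SE 0.22) with CON-LFD replicate 3 inside the range of the obese libraries. Cox7b had 5100, 7487, 3412 and 4241 in CON-LFD, 2488, 3054, 3350 and 2857 in DIO-HFD, 3374, 5301, 4163 and 4778 in DIO-LFD and 3370, 3476, 6188 and 5048 in DIO-VSG, without overlap between the obese libraries and any others, and its log2 difference was -0.73 (SE 0.24).

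The remaining broadly expressed subunits of complex IV lay lower with overlap. Cox4i1, the common form of subunit IV, had 14278, 22342, 11066 and 12593 in CON-LFD, 8842, 11789, 13196 and 10658 in DIO-HFD, 12985, 16823, 14874 and 16218 in DIO-LFD and 12928, 11832, 17971 and 15625 in DIO-VSG, and its log2 difference of -0.40 (SE 0.20) had an unadjusted P of 0.0666 and an adjusted P of 0.422 by limma. Cox6a1 had 10474, 14795, 5751 and 8458 in CON-LFD, 4425, 7151, 8102 and 5850 in DIO-HFD, 7965, 10735, 8551 and 10107 in DIO-LFD and 6350, 6205, 10796 and 9396 in DIO-VSG, a log2 difference of -0.58 (SE 0.27). In both, DIO-HFD replicates 2 and 3 were above the lowest lean library, and for Cox6a1 DIO-HFD replicate 4 was above it as well. Cox6b1, which faces the intermembrane space, had 9378, 11638, 5486 and 8522 in CON-LFD, 4126, 6041, 6700 and 5310 in DIO-HFD, 6637, 8869, 7651 and 9078 in DIO-LFD and 6299, 6115, 10338 and 8918 in DIO-VSG, a log2 difference of -0.63 (SE 0.23). Cox6c had 4098, 5978, 2874 and 3127 in CON-LFD, 2586, 2979, 3231 and 2869 in DIO-HFD, 3671, 4873, 3979 and 4420 in DIO-LFD and 3146, 3008, 4791 and 4160 in DIO-VSG (-0.41, SE 0.21). Both had CON-LFD replicate 3 within the obese range, and Cox6c had CON-LFD replicate 4 there as well. Cox7a2, the common form of subunit VIIa, had 4219, 5841, 2848 and 3389 in CON-LFD, 2307, 3033, 3200 and 2724 in DIO-HFD, 3732, 4609, 3791 and 4570 in DIO-LFD and 3037, 3181, 4902 and 4389 in DIO-VSG (-0.49, SE 0.21). Cox8a had 8540, 9890, 5531 and 7540 in CON-LFD, 4164, 6334, 6867 and 5255 in DIO-HFD, 8700, 8652, 8044 and 9014 in DIO-LFD and 6037, 5770, 8459 and 7610 in DIO-VSG (-0.47, SE 0.19). In Cox7a2 and Cox8a the 1 lean library within the obese range was replicate 3.

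Complex V had 10 of 17 genes lower at an unadjusted P below 0.05, with a median log2 difference of -0.37, the closest to 0 of the 4 complexes. Atp5c1 (ENSMUSG00000025781.14, chr2:10056016-10080510, minus strand), the gamma subunit that turns inside the catalytic head, had normalized counts of 11798, 12808, 8781 and 11133 in CON-LFD, 6224, 7769, 8131 and 7983 in DIO-HFD, 8748, 10406, 9418 and 11045 in DIO-LFD and 8786, 8821, 11495 and 10510 in DIO-VSG. No obese library reached any other library. Its log2 difference was -0.56 (SE 0.13, unadjusted P = 0.000962, adjusted P = 0.176 by limma). The catalytic head itself is built of the products of Atp5a1 and Atp5b. Atp5a1 had 37772, 49933, 26862 and 33053 in CON-LFD, 22019, 27712, 32676 and 25859 in DIO-HFD, 33530, 38467, 32537 and 36423 in DIO-LFD and 27478, 28139, 42443 and 35785 in DIO-VSG, a log2 difference of -0.42 (SE 0.19). Atp5b had 63288, 96457, 40405 and 51998 in CON-LFD, 28016, 40684, 54585 and 38152 in DIO-HFD, 45955, 61094, 50900 and 58301 in DIO-LFD and 39296, 41096, 64910 and 53512 in DIO-VSG, a log2 difference of -0.61 (SE 0.26). In both, DIO-HFD replicate 3 was above at least 1 lean library, and CON-LFD replicate 2 was the highest of the 16 libraries. By piece of the enzyme, 2 of 2 genes of the head, 2 of 3 of the central stalk, 3 of 4 of the peripheral stalk, 2 of 3 of the membrane part, 0 of 3 of the c ring and 1 of 2 factors were lower at an unadjusted P below 0.05. Atp5k (-0.70, SE 0.22) and Atp5j2 (-0.55, SE 0.20), both of the membrane part, had no obese library within the range of any other group.

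**Figure D2:**
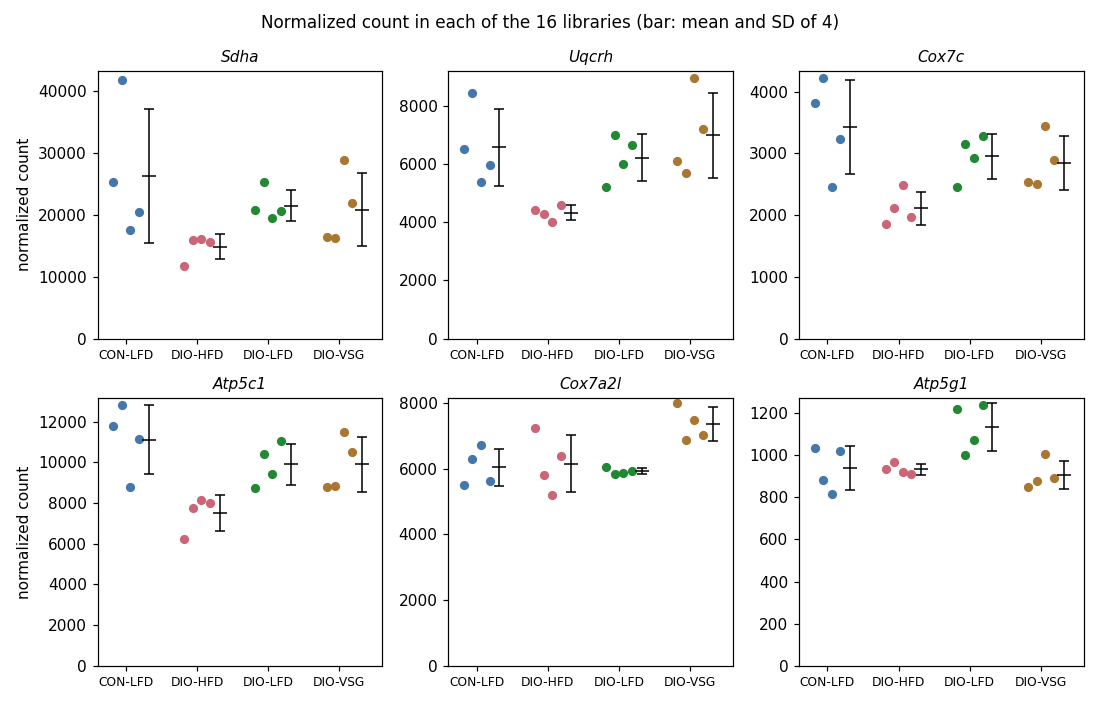
Normalized count (vertical axis) in each of the 16 libraries, with the group mean and SD as a bar, of Sdha, Uqcrh, Cox7c and Atp5c1, which were lower in DIO-HFD than in CON-LFD at an unadjusted limma P below 0.05, and of Cox7a2l and Atp5g1, which were not. The 4 DIO-HFD libraries of Uqcrh lie at 4005 to 4594, under all others, while those of Cox7a2l spread from 5191 to 7238.

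In DIO-LFD, the obese mice changed to low-fat food, the genes of complexes II to V were mostly higher than in DIO-HFD: 42 of 44 had a positive log2 difference, with a median of 0.48 against 0.01 for all genes, the exceptions being Cox4i2 and Cox7a2l. At an unadjusted P below 0.05, 29 (65.9%) were higher and 0 lower, against 5.37% higher and 3.16% lower among all genes tested. The smallest adjusted P by limma was 0.409, and 0 genes of any kind (0%) passed 0.05 after adjustment. With library weights 27 of the 44 and 8.54% of all genes passed. The count of 29 was 14 without DIO-HFD replicate 1 and 17 without DIO-LFD replicate 2. This comparison uses the same DIO-HFD libraries as the one with CON-LFD, so that a low value there moves both.

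By complex, 2 of 4, 8 of 9, 9 of 14 and 10 of 17 genes of complexes II, III, IV and V were higher in DIO-LFD at an unadjusted P below 0.05, with median log2 differences of 0.47, 0.61, 0.54 and 0.39. Uqcrq had the highest value of the 44, 0.83 (SE 0.30). The smallest P belonged to Atp5g3, a gene of the c ring, with normalized counts of 8831, 8817, 6338 and 8332 in CON-LFD, 5175, 6640, 8760 and 6390 in DIO-HFD, 8989, 9076, 9223 and 11239 in DIO-LFD and 7391, 7228, 7940 and 8512 in DIO-VSG. All DIO-LFD libraries were above all DIO-HFD libraries, DIO-LFD replicate 4 was far above the other 3, and the log2 difference was 0.53 (SE 0.15, unadjusted P = 0.00288, adjusted P = 0.409 by limma). Cox8a (0.63, SE 0.19), Uqcr10 (0.69, SE 0.24) and Atp5d (0.47, SE 0.15), the delta subunit of the central stalk, were also free of overlap. Sdha (0.54, SE 0.24), Uqcrh (0.51, SE 0.16), Cox5a (0.68, SE 0.23) and Atp5c1 (0.40, SE 0.13) differed from DIO-HFD without overlap, as they did against CON-LFD.

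In DIO-VSG, 42 of 44 genes were above DIO-HFD, with a median log2 difference of 0.39 against 0.02 for all genes, and Cox4i2 and Atp5g1 were below it. At an unadjusted P below 0.05, 16 (36.4%) were higher and 0 lower, against 5.05% higher and 8.12% lower among all genes. The smallest adjusted P by limma was 0.243, and 0% of all genes passed 0.05. With library weights 32 of the 44 and 17.6% of all genes passed. The count of 16 depended on which library was left out: it was 5 without DIO-VSG replicate 3, 8 without DIO-VSG replicate 4, 8 without DIO-HFD replicate 1, 10 without DIO-HFD replicate 2, 9 without DIO-HFD replicate 4 and 26 without CON-LFD replicate 2, a library that enters only through the shared estimate of the spread.

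Among the 44 genes, Uqcrh had the smallest P in this comparison, with a log2 difference of 0.67 (SE 0.16, unadjusted P = 0.00072, adjusted P = 0.243 by limma). Cox5a (0.67, SE 0.23), Cox7b (0.58, SE 0.24), Uqcrc2 (0.54, SE 0.21), Atp5k (0.67, SE 0.22), Atp5j2 (0.49, SE 0.20) and Atp5c1 (0.39, SE 0.13) were among those higher without overlap. In the libraries printed for the complex II genes, DIO-VSG replicates 1 and 2 lay just above the obese range and replicate 3 far above it. Complex II had 0 of 4 genes past an unadjusted P of 0.05 (median 0.41), complex III 4 of 9 (0.51), complex IV 6 of 14 (0.41) and complex V 6 of 17 (0.31).

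When DIO-HFD was set against the mean of the 3 low-fat-fed groups, 43 of 44 genes were lower, with a median log2 difference of -0.44 against -0.01 for all genes. At an unadjusted P below 0.05, 34 (77.3%) were lower and 0 higher, against 6.66% lower and 4.98% higher among all genes, and 0% of all genes passed after adjustment. Uqcrh had the smallest P of the 44, a log2 difference of -0.59 (SE 0.13, unadjusted P = 0.000379, adjusted P = 0.118 by limma). With library weights 38 of the 44 passed an adjusted P of 0.05, as did 20.5% of all genes, and without DIO-HFD replicate 1 the count of 34 was 18. The 1 gene that was higher in DIO-HFD was Cox4i2, at 0.28 (SE 0.15, unadjusted P = 0.0918 by limma). By complex, 4 of 4, 8 of 9, 10 of 14 and 12 of 17 genes of complexes II to V were lower at an unadjusted P below 0.05.

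Among the 3 low-fat-fed groups few genes of complexes II to V differed at an unadjusted P below 0.05, and the sign of each median turned with the library left out. In DIO-LFD minus CON-LFD the median log2 difference was -0.02 (-0.16 without CON-LFD replicate 3, 0.13 without CON-LFD replicate 2 and 0.01 without DIO-LFD replicate 1), with 15 genes higher and 29 lower; 2 were higher at an unadjusted P below 0.05 and 0 lower, against 3.23% and 3.03% of all genes, of which 0.00471% passed after adjustment. The 2 were Atp5e (0.34), the epsilon subunit of the central stalk, and Atp5g1 (0.28), with an adjusted P of at least 0.635 by limma, and the count was 1 without any 1 of CON-LFD replicates 1, 3 and 4 or DIO-LFD replicates 2, 3 and 4. In DIO-VSG minus CON-LFD the median was -0.08 (-0.23 without CON-LFD replicate 3 and 0.04 without CON-LFD replicate 2), with 8 higher and 36 lower; 1 was higher at an unadjusted P below 0.05 and 0 lower, against 10.2% and 7.55% of all genes and 0% after adjustment. That gene was Cox7a2l, and the count was 3 without CON-LFD replicate 2, 4 without CON-LFD replicate 3 and 2 without DIO-VSG replicate 3. In DIO-VSG minus DIO-LFD the median was -0.08 (-0.20 without DIO-VSG replicate 3 and 0.0018 without DIO-VSG replicate 2), with 9 higher and 35 lower; Cox7a2l was higher and Atp5g1 lower at an unadjusted P below 0.05, against 4.3% and 5.41% of all genes and 0% after adjustment. Leaving out DIO-HFD replicate 3, which belongs to neither group, made that count 4.

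Cox7a2l (ENSMUSG00000024248.14, chr17:83501918-83517330, minus strand) is named for complex IV but encodes a factor that joins complexes III and IV into supercomplexes, and C57BL/6 mice carry a shortened form of the protein. Its normalized counts were 5506, 6303, 6711 and 5631 in CON-LFD, 7238, 5799, 5191 and 6399 in DIO-HFD, 6050, 5834, 5867 and 5928 in DIO-LFD and 8010, 6873, 7494 and 7013 in DIO-VSG. The DIO-LFD libraries were within a narrow band, every DIO-VSG library was above every DIO-LFD and CON-LFD library, and the DIO-HFD libraries spread across both ranges. The log2 difference was 0.31 (SE 0.10, unadjusted P = 0.00773, adjusted P = 0.509 by limma) in DIO-VSG minus DIO-LFD and 0.29 (unadjusted P = 0.0124, adjusted P = 0.268) in DIO-VSG minus CON-LFD. Against CON-LFD it was 0.02 (SE 0.10) in DIO-HFD, so that it did not share the lower values of the subunits there. In DIO-VSG minus DIO-HFD it was 0.26 (unadjusted P = 0.0192 by limma), higher in DIO-VSG as most of the subunits were.

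Atp5sl, also called Dmac2, bears the name of the ATP synthase but is known for the assembly of complex I. It had 1447, 1514, 2121 and 1133 in CON-LFD, 2189, 1009, 681 and 1900 in DIO-HFD, 1288, 1628, 1523 and 1395 in DIO-LFD and 2039, 2106, 2261 and 1871 in DIO-VSG. All DIO-VSG libraries were above all DIO-LFD libraries, and DIO-HFD held both high and low values. The log2 difference in DIO-VSG minus DIO-LFD was 0.51 (SE 0.29, unadjusted P = 0.107, adjusted P = 0.529 by limma). In DIO-VSG minus DIO-HFD it was 0.67, with an unadjusted P below 0.05 and an adjusted P of 0.365 by limma. Atp5sl and Cox7a2l are therefore both among the 16 genes counted as higher there. Both Cox7a2l and Atp5sl were higher in the libraries with more B and T cell markers. In the 7 libraries with the highest B cell sums (52862 to 85937 normalized counts), which are 1 of CON-LFD, 2 of DIO-HFD and 4 of DIO-VSG, Cox7a2l was 6399 to 8010 and Atp5sl 1871 to 2261, and in the other 9 (258 to 34998) they were 5191 to 6303 and 681 to 1628. The same 7 libraries had the highest sums of 9 T cell markers, 24141 to 51985 against 905 to 20574 in the other 9. This split of the libraries was not planned. Its higher set holds all 4 DIO-VSG libraries and 0 of DIO-LFD, so that it repeats in part the difference between those groups. The part of B and T cells in the differences of Cox7a2l and Atp5sl was not tested. With DIO-VSG and DIO-LFD alone in the limma fit, both genes passed an adjusted P of 0.05 (0.0345 for Cox7a2l and 0.0218 for Atp5sl), as did 7.22% of all genes, so that 2 of 44 is no larger a share than that of all genes. Over all alternatives the adjusted P in this comparison ranged from 0.0345 to 0.795 for Cox7a2l and from 0.0218 to 0.795 for Atp5sl.

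The c subunit of the ATP synthase ring is made from 3 genes that encode the same mature protein. Atp5g3, given above, was the most abundant of the 3, and its difference between DIO-HFD and CON-LFD was -0.27 (SE 0.15). Atp5g1 (ENSMUSG00000006057.15, chr11:96068852-96075670, minus strand) had 1033, 884, 815 and 1020 in CON-LFD, 933, 969, 921 and 909 in DIO-HFD, 1221, 1003, 1074 and 1240 in DIO-LFD and 851, 878, 1004 and 891 in DIO-VSG. DIO-LFD was the high group, with every library above every DIO-HFD library and all but replicate 2 above every DIO-VSG library, and DIO-HFD and CON-LFD did not separate. The log2 difference was 0.00 (SE 0.10) in DIO-HFD minus CON-LFD, 0.28 (unadjusted P = 0.014) in DIO-LFD minus DIO-HFD, and -0.32 (SE 0.10, unadjusted P = 0.00563, adjusted P = 0.509 by limma) in DIO-VSG minus DIO-LFD. Atp5g2 had 121, 134, 112 and 94.5 in CON-LFD, 112, 71.9, 106 and 77 in DIO-HFD, 88.4, 103, 82 and 107 in DIO-LFD and 103, 154, 124 and 119 in DIO-VSG, with overlap in every comparison. The log2 difference was -0.34 (SE 0.19) in DIO-HFD minus CON-LFD and 0.45 (SE 0.19, unadjusted P = 0.032, adjusted P = 0.347 by limma) in DIO-VSG minus DIO-HFD. Of the reads of Atp5g2 and its pseudogene copies together, 97.7% were counted on the copies. Whether the copies took reads of Atp5g2 was not tested, and the values with copies are given further on.

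Tissue-restricted forms of complex IV were few in reads, and a difference between them and the common forms was not tested. Cox4i2, the lung form of subunit IV, had 150, 108, 118 and 106 in CON-LFD, 142, 121, 135 and 152 in DIO-HFD, 108, 78.4, 123 and 143 in DIO-LFD and 108, 127, 97.5 and 107 in DIO-VSG. DIO-HFD tended to the upper end with overlap, and the log2 difference was 0.20 (SE 0.19) against CON-LFD and -0.32 (SE 0.19) in DIO-VSG minus DIO-HFD. Per kilobase, Cox4i1 exceeded Cox4i2 by a ratio of 59.8 to 93.6 in DIO-HFD, 89.8 to 198 in CON-LFD, 109 to 206 in DIO-LFD and 89.4 to 177 in DIO-VSG. Cox6a2, the muscle form, had 15.5, 2.12, 34.1 and 98.5 in CON-LFD, 57.4, 11.1, 33.8 and 30.3 in DIO-HFD, 13.1, 9.92, 18.1 and 346 in DIO-LFD and 25.9, 95.3, 26.7 and 38.1 in DIO-VSG. A single library, DIO-LFD replicate 4, was far above the rest, and the standard error of each log2 difference was 1.11. The muscle creatine kinase Ckm was highest in the same library at 11751 normalized counts, and next in CON-LFD replicate 4 (2462) and DIO-VSG replicate 2 (1666), which were also next for Cox6a2. Cox6b2, the testis form, had 107, 142, 91.3 and 84.4 in CON-LFD, 62, 123, 51.3 and 124 in DIO-HFD, 112, 94.2, 122 and 79.7 in DIO-LFD and 91.3, 80.9, 89.3 and 91.5 in DIO-VSG, with overlap between all groups and a log2 difference of -0.32 (SE 0.28) in DIO-HFD minus CON-LFD.

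Some markers of other cell types varied along with these genes in part of the libraries. Normalized counts of Ucp1 were 2182, 24043, 292 and 1343 in CON-LFD, 4.63, 226, 25.1 and 29.5 in DIO-HFD, 682, 2098, 873 and 114 in DIO-LFD and 72.6, 15.3, 21836 and 4658 in DIO-VSG. For each library, the median deviation of the 44 genes from their means over the 16 libraries was 0.22, 0.63, -0.29 and 0.03 on the log2 scale in CON-LFD, -0.61, -0.28, -0.08 and -0.34 in DIO-HFD, -0.07, 0.28, 0.07 and 0.25 in DIO-LFD and -0.21, -0.19, 0.40 and 0.16 in DIO-VSG. In 3 of the 4 groups, DIO-HFD being the exception, the library with the most Ucp1 was also the highest of its group for these genes. The same library of each of those 3 groups also had the highest sum of 9 mammary epithelium markers, at 71181, 91225 and 52912 normalized counts, and the group medians of that sum were 55487 in CON-LFD, 32587 in DIO-HFD, 58564 in DIO-LFD and 41208 in DIO-VSG. Not every marker of the list followed that order. Krt14 was 4232, 4825, 2103 and 2669 in CON-LFD and 2152, 4816, 1080 and 4800 in DIO-HFD. In the other groups it was 1334, 2912, 2438 and 1989 (DIO-LFD) and 1494, 1486, 1882 and 1567 (DIO-VSG). DIO-VSG replicates 1 and 2 and DIO-LFD replicate 4 lay within the DIO-HFD range for Ucp1, with median deviations of -0.21, -0.19 and 0.25. DIO-HFD replicate 1 had the lowest epithelial (24953) and adipocyte (567379) sums of the 16 libraries and the highest B cell sum (85937). CON-LFD replicate 2 was the highest of all 16 libraries for 34 of the 44 genes and DIO-HFD replicate 1 the lowest for 33.

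Without the 2 libraries richest in Ucp1 (CON-LFD replicate 2 and DIO-VSG replicate 3), the counts at an unadjusted P below 0.05 were 15 in DIO-HFD minus CON-LFD, 36 in DIO-LFD minus DIO-HFD and 7 in DIO-VSG minus DIO-HFD, and 31 against the mean of the low-fat-fed groups. The median log2 differences of DIO-HFD minus CON-LFD and of DIO-VSG minus DIO-HFD were then -0.33 and 0.28. Without the 3 libraries richest in Ckm (CON-LFD replicate 4, DIO-LFD replicate 4 and DIO-VSG replicate 2), the same counts were 23, 14, 16 and 32. Both settings were added after the data were seen, and the share of all genes at this threshold is not given for them. The part of brown or beige adipocytes and of epithelium in the differences was not tested. Cox8b, a complex IV gene of brown fat and muscle that the rule leaves out, was 1650, 5662, 772 and 982 in CON-LFD, 97.2, 172, 241 and 327 in DIO-HFD, 328, 1920, 1395 and 1213 in DIO-LFD and 569, 350, 3007 and 1490 in DIO-VSG. Cox7a1, the muscle and brown fat form of subunit VIIa that the rule also leaves out, was 319, 1688, 58.1 and 139 in CON-LFD, 25.0, 58.7, 75.3 and 41.0 in DIO-HFD, 90.6, 326, 130 and 210 in DIO-LFD and 56, 64.8, 762 and 365 in DIO-VSG. For Cox8b the obese libraries lay below all others, and for Cox7a1 they overlapped with CON-LFD and DIO-VSG.

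**Figure D3:**
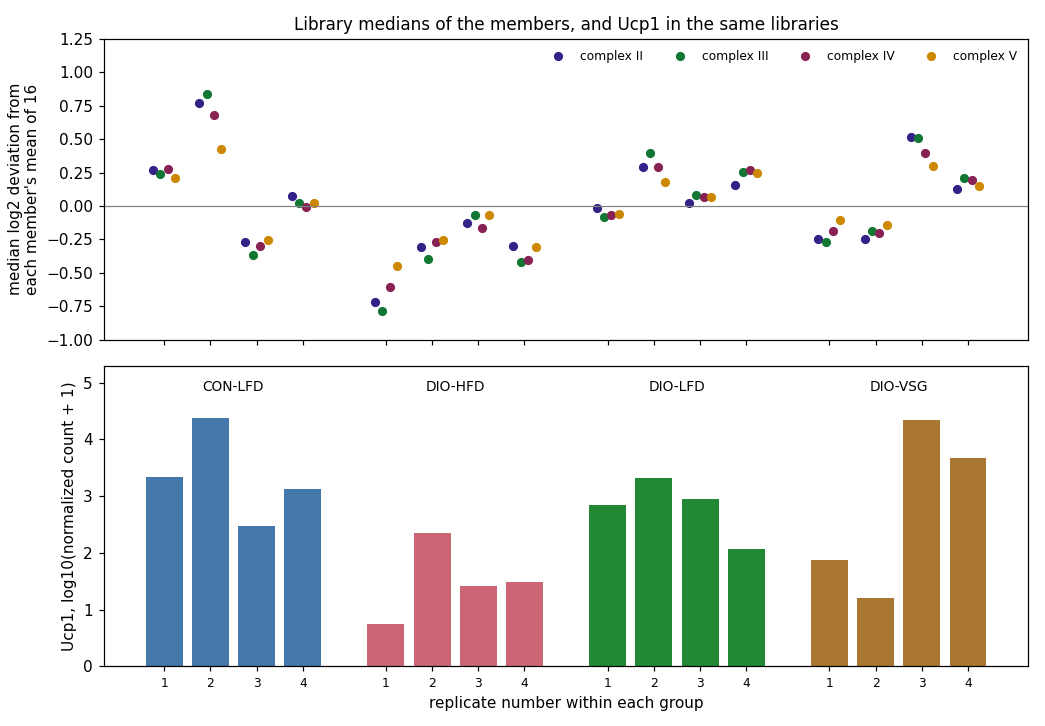
Top, median log2 deviation of the genes of each complex from their means over 16 libraries (vertical axis), 1 position per library; bottom, Ucp1 as log10(normalized count + 1) in the same libraries. The 4 complexes move together within a library, and CON-LFD replicate 2 and DIO-VSG replicate 3 stand highest in both panels.

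Near-identical pseudogenes bear on 12 of the 44 genes. These have a listed pseudogene with at least 95% identity over at least 150 bases, so that the counting could split reads between the gene and its copies. Of the reads of gene and copies together, the copies took 97.7% for Atp5g2, 65.3% for Atp5l, 41.9% for Atp5g1, 40.8% for Cox7c, 21.3% for Uqcrb and 10.5% for Cox7a2l, and 0.162 to 6.39% for Atp5h, Atp5f1, Atp5o, Atp5k, Cox7b and Uqcr11. Values for these 12 genes are uncertain at least to that extent, since the shares count pseudogenes only. Atp5o also matched Donson (100% over 287 bases), Atp5f1 matched Wdr77 at its own locus (100% over 192 bases) and Atp5g1 matched Gm16702 (96.5% over 169 bases). Among the other 32, Cox5b matched the gene Gm11273 (99.2% over 390 bases) and Uqcr10 the antisense transcript 4930481A15Rik (96.8% over 185 bases), and Cox4i1 and Uqcrc2 overlapped at their own loci with Emc8 and Pdzd9, so that these are uncertain too and were not summed. In DIO-HFD minus CON-LFD, 8 of these 12 and 22 of the other 32 genes were lower at an unadjusted P below 0.05.

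Atp5l, subunit g of the membrane part, shows the effect of adding the copies. Alone it had 1858, 2830, 1437 and 1273 normalized counts in the lean libraries and 1470, 1736, 2121 and 1599 in the obese ones, with overlap and a log2 difference of -0.04 (unadjusted P = 0.856). With its 4 copies it had 6390, 8171, 4557 and 5907 in CON-LFD, 3914, 4905, 5706 and 4418 in DIO-HFD, 5323, 6353, 6077 and 6946 in DIO-LFD and 5597, 5259, 7666 and 6966 in DIO-VSG. The lean libraries other than replicate 3 then lay above all obese libraries, and the log2 difference was -0.38 (SE 0.17, unadjusted P = 0.0448, adjusted P = 0.373 by limma). Atp5g2 with its copies had 5165, 5384, 4243 and 4362 in CON-LFD, 4192, 4098, 3930 and 4090 in DIO-HFD, 4180, 5208, 4669 and 4816 in DIO-LFD and 4718, 4589, 5187 and 4527 in DIO-VSG. Every obese library then lay below every CON-LFD and DIO-VSG library and overlapped with DIO-LFD replicate 1. The log2 difference of DIO-HFD minus CON-LFD went from -0.34 (unadjusted P = 0.0946) to -0.22 (SE 0.09, unadjusted P = 0.0276, adjusted P = 0.326 by limma), and the 0.38 in DIO-VSG minus DIO-LFD went to 0.01. Atp5g1 kept its sign in DIO-VSG minus DIO-LFD (-0.32 to -0.27), but in DIO-LFD minus CON-LFD it went from 0.28 to 0.20 and no longer reached an unadjusted P of 0.05 (unadjusted P = 0.0645, adjusted P = 0.824 by limma), and Cox7a2l kept its value (0.31). With copies added for all 12, 32 of the 44 genes were lower in DIO-HFD than in CON-LFD at an unadjusted P below 0.05, 31 were higher in DIO-LFD and 18 in DIO-VSG than in DIO-HFD. The share of all genes in that fit is not given.

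**Figure D4:**
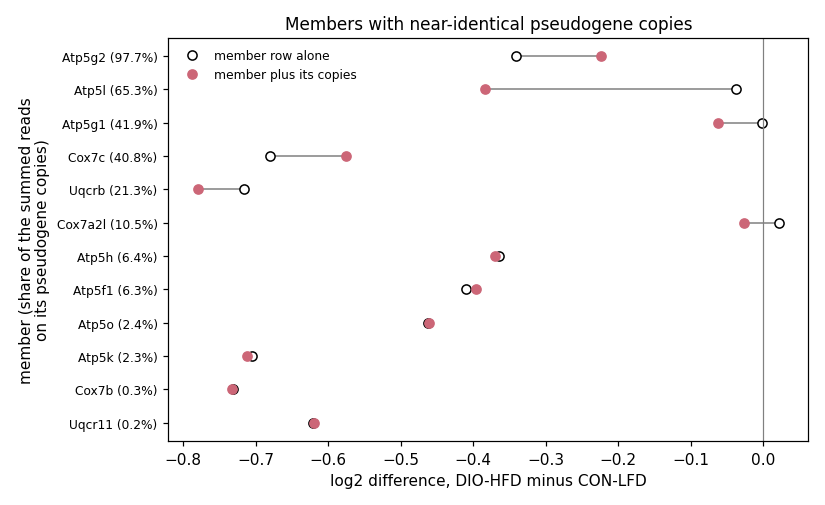
Log2 difference of DIO-HFD minus CON-LFD (horizontal axis) for the 12 genes with near-identical copies, for the gene alone and for the gene plus its copies, with the percent of their joint reads that lay on copies. Atp5l moves from -0.04 to -0.38, and genes with few reads on copies hardly move.

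Other genes of the same pathway were taken as lists, chosen like the 44 with earlier results of these data known. In DIO-HFD minus CON-LFD, 21 of 38 genes named for complex I (the Nduf genes) were lower at an unadjusted P below 0.05 and 0 higher (median log2 difference -0.44), against 7.66% and 5.23% of all genes, and 13 of 14 tricarboxylic acid cycle genes were lower (median -0.72). The 38 include Ndufa4 (-0.64, SE 0.22), whose product is now known as a subunit of complex IV, and its relative Ndufa4l2. Citrate synthase, Cs, stood at -0.76 (SE 0.24). Of 8 tested genes for cytochrome c and carriers of the inner and outer membrane, 2 were lower (median -0.17). The lowest was cytochrome c (Cycs), the electron carrier that links complexes III and IV, with -1.08 (SE 0.31, unadjusted P = 0.00366, adjusted P = 0.226 by limma), 0.69 in DIO-LFD minus DIO-HFD and 0.83 in DIO-VSG minus DIO-HFD. The other was the outer membrane channel Vdac1 (-0.43, SE 0.19), and the phosphate carrier Slc25a3 stood at -0.03 (SE 0.08). Of the assembly factors, 1 of 4 for complex II, 2 of 6 for complex III, 6 of 22 for complex IV and 2 of 3 for complex V were lower at the same threshold. Among 19 tested regulators of mitochondrial biogenesis, 4 were lower, among them the coactivators Ppargc1a (-0.92, SE 0.35) and Ppargc1b (-0.83, SE 0.28) and the receptor Esrra (-0.42, SE 0.15), and 1 was higher, Pprc1 (0.40). None of the genes of these lists passed an adjusted P of 0.05 by limma in any of the 7 comparisons. In DIO-LFD minus DIO-HFD, 28 of the 38 Nduf genes and 3 of 14 cycle genes were higher at an unadjusted P below 0.05 and 0 lower, against 5.37% and 3.16% of all genes. In DIO-VSG minus DIO-HFD, 11 of 38 and 2 of 14 were higher, against 5.05%. There 1 of the Nduf genes was lower, against 8.12% of all genes, and it had the smallest P of its list: Ndufa4l2 (-1.27, SE 0.32, unadjusted P = 0.00131, adjusted P = 0.243 by limma).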

How the data were processed

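RNA from 16 contralateral mammary fat pads, 4 per group, was sequenced by the study with a stranded total-RNA kit in paired reads. The deposited table holds variance-stabilized log2 values made by the authors, with 1 minimum of 5.36 shared by all libraries and a maximum of 21.8. The submitters' processing notes name TopHat2 2.0.7, HTSeq 0.5.3p9, DESeq2 and mm10, whereas the study's methods name STAR 2.4.2, GRCm38 and salmon 0.1.19, so which of these made the table is unsettled, and how reads shared between near-identical genes were assigned is not given in the sources used here. The planned test assumed normalized counts. The transformation was inverted to normalized counts, which gave whole reads within a tolerance of 0.05 for 100% of values once divided by the step of each library. Recovered totals were 46907377 to 57610899 reads per library and size factors 0.904 to 1.22. There were 0 unused columns of per-sample values.

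A gene entered the test when 4 or more libraries reached 10 normalized counts (21218 of 23179). With R 4.3.3, limma 3.58.1 was fitted to log2(normalized count + 1) with an intensity trend, all 16 libraries and group as the only term, in 7 comparisons, with Benjamini-Hochberg adjustment over all genes tested within each comparison. A log2 difference on this scale understates the change of genes with few reads. The fitting code was tested on simulated data. Gene positions and lengths came from GENCODE M21 and promoters from RefSeq on GRCm38.p6. Copies were found with blastn 2.17.0 among transcripts (Python 3.11.15 for the joins) at 95% identity over 150 bases.

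Genes given in every library were, by rule, those with the smallest P of each complex in DIO-HFD minus CON-LFD and against the low-fat-fed mean, those with the highest and lowest log2 difference in each comparison, 10 core subunits, and the members of isoform pairs. Atp5l, Atp5k, Atp5j2, Atp5d, Atp5e, Atp5s, Sdhc, Sdhd, Uqcrc2, Uqcrb and Uqcr10, and Ndufa4, Ndufa4l2, Vdac1 and Slc25a3, were named after their values were seen. The members and all lists were chosen with earlier results of these data known. The alternatives were the deposited values themselves, another pseudocount, no filter, limma-voom on recovered reads, upper-quartile and quantile scaling, library weights, the replicate number as a block, the compared groups alone, members without copies or factors, copies added, and each library left out. Replicates within a group differed by far more than sampling noise, with correlations across genes of 0.888 to 0.982.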

Additional observations from a re-analysis of the deposited data

Results flagged for a closer look

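In each group of 4 libraries, the highest and the lowest value of every gene of complexes II to V, and of the median deviation over the 44 genes, were set against the other 3 on the log2 scale, and 4 values stood apart by Dixon's criterion among 180 groups tested. Chance gives such a value in about 1 in 20 groups.

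Sdha was 11771 normalized counts in DIO-HFD replicate 1 and 15636 to 16098 in the other 3 obese libraries, a gap of 0.907 of the range. Atp5c1 was 6224 in the same library and 7769 to 8131 in the other 3, just at the criterion. That library was the lowest of all 16 for 33 of the 44 genes.

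Atp5g3 was 11239 in DIO-LFD replicate 4 and 8989 to 9223 in the other 3, a gap of 0.885. Cox6a2, the muscle form of subunit VIa, was 346 there and 9.92 to 18.1 in the other 3, a gap of 0.838, and the muscle gene Ckm was at 11751 normalized counts in that library. The part of muscle tissue in these values was not tested.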

How the results depend on the processing

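Under every alternative run, all 7 median log2 differences of the 44 genes moved by less than the spread between libraries, but with a library left out the median ranged from -0.16 to 0.13 in DIO-LFD minus CON-LFD, -0.23 to 0.04 in DIO-VSG minus CON-LFD and -0.20 to 0.0018 in DIO-VSG minus DIO-LFD, so that its sign turned there. The 4 comparisons with DIO-HFD kept their sign. Counts of genes at an unadjusted P below 0.05 moved more. For counts under any alternative setting, here and above, the share of all genes at the same unadjusted threshold is not given. Such counts are read only as dependence on the setting, not as a result about these genes. With only the compared groups in the fit they were 18 in DIO-HFD minus CON-LFD, 0 in DIO-LFD minus CON-LFD, 2 in DIO-VSG minus CON-LFD and 5 in DIO-VSG minus DIO-LFD, and this setting could not be run against the mean of the low-fat-fed groups, which needs all 4. With library weights they were 40 in DIO-VSG minus DIO-HFD, 4 in DIO-VSG minus CON-LFD and 6 in DIO-VSG minus DIO-LFD. Among the 30 genes that neither have pseudogene copies nor are factors, a smaller set, they were 9 in DIO-VSG minus DIO-HFD, 1 in DIO-LFD minus CON-LFD and 0 in the other comparisons of DIO-VSG with low-fat-fed groups. Without the 2 libraries richest in Ucp1 they were 15 in DIO-HFD minus CON-LFD, 7 in DIO-VSG minus DIO-HFD, 4 in DIO-LFD minus CON-LFD, 2 in DIO-VSG minus CON-LFD and 5 in DIO-VSG minus DIO-LFD, and without the 3 richest in Ckm 14 in DIO-LFD minus DIO-HFD and 1 in DIO-LFD minus CON-LFD. Upper-quartile scaling and the addition of copies each gave 1 in DIO-LFD minus CON-LFD. The cause of these shifts was not tested. With each library left out in turn, counts ranged from 13 to 35 in DIO-HFD minus CON-LFD, 14 to 35 in DIO-LFD minus DIO-HFD, 5 to 26 in DIO-VSG minus DIO-HFD, 18 to 35 against the low-fat-fed mean, 1 to 3 in DIO-LFD minus CON-LFD, 1 to 4 in DIO-VSG minus CON-LFD and 2 to 4 in DIO-VSG minus DIO-LFD. Of the genes at an unadjusted P below 0.05, those that held it under every alternative they entered were 13 of 30 in DIO-HFD minus CON-LFD, namely Sdha, Sdhb, Uqcrc2, Uqcrb, Uqcrh, Cox5a, Cox5b, Cox7b, Cox7c, Atp5c1, Atp5k, Atp5j2 and Atp5s, 11 of 29 in DIO-LFD minus DIO-HFD, 4 of 16 in DIO-VSG minus DIO-HFD (Uqcrh, Cox5a, Atp5c1 and Atp5k) and 16 of 34 against the low-fat-fed mean, and all of these 30, 29, 16 and 34 kept their sign. Sdhc held it in 13 of 29 alternatives, Sdhd in 14, Uqcr10 in 13 and Cox6a1 in 11, in DIO-HFD minus CON-LFD.

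With 4 libraries a group, the values do not settle whether the replicate numbers pair the animals. Of 24 same-numbered pairs, 9 had deviations correlated above 0.1 (range -0.61 to 0.53), and 7 of 16 libraries matched best with their own number. With the replicate number as a block the counts were 24 in DIO-HFD minus CON-LFD, 27 in DIO-LFD minus DIO-HFD, 10 in DIO-VSG minus DIO-HFD and 32 against the low-fat-fed mean, and no gene passed after adjustment. Depth limits mainly Cox6a2, with as few as 2.12 normalized counts in a library; the other genes had at least 51.3 in every library.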
